A study of Mus musculus with 17 samples.

Results

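Voltage-gated calcium and sodium channels open when the membrane of a neuron depolarizes. The genes that encode them were followed here in cortical nuclei of mice exposed to chronic unpredictable stress (CUS) and of unstressed controls. The genes were chosen by name and comprise 30 symbols of calcium channel pores and auxiliary subunits, sodium channel pores and beta subunits, and the leak channel Nalcn. Of these, 29 had a row among the 36293 genes of the bulk files and among the 37608 genes of the single-nucleus tables. The remaining name, Scn2a1, is an older symbol of Scn2a and had no row of its own. In bulk nuclear RNA 26 of the 29 genes passed the filter on low counts. Scn4a, Scn10a and Scn11a, known mainly from muscle and sensory neurons, did not pass it, with between 1 and 14 reads in each mouse.

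All mice were C57BL/6 by the labels and C57Bl/6J, male, by the study's methods, and the labels name no transgene. Bulk nuclear RNA-seq covered 4 control and 5 CUS mice at postnatal day 90, and sNucDrop-seq, which barcodes the RNA of single nuclei, covered 4 control and 4 CUS mice at postnatal day 80. CUS mice received several different stressors a day over 12 days, controls were kept in another room and handled daily, and the labels place tissue collection 24 h after the last stressor. For the bulk mice the study's methods instead place it 24 h after a final behavioral test, so these mice had also been tested for behavior. The labels call the tissue cortex, and the study's methods give medial prefrontal cortex for the bulk samples. Bulk libraries held 26188825 to 30525015 reads on genes. In sNucDrop-seq 26698 of 40000 barcodes were kept, 1935 to 4235 nuclei and 4699542 to 12477099 unique molecular identifiers (UMIs) per mouse, with a median of 2010 UMIs per nucleus. The 8 libraries shared 20 barcodes, at most 2 for any pair. Nuclei fell into 25 classes of over 200 nuclei, of which 13 were counted as excitatory and 4 as inhibitory. Claustrum-like nuclei, which carry Slc17a7, and Rmst-like and Meis2-like nuclei, which carry Gad2, were counted with neither. The neocortical label did not describe all of the tissue, since 1784 nuclei (6.68%) were striatal-like, led by markers of striatal projection neurons such as Drd1, Drd2 and Adora2a.

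A voltage-gated calcium channel is built around 1 large pore protein. The Cav1 pores (Cacna1c, Cacna1d) carry L-type currents that couple activity to transcription in the nucleus, the Cav2 pores (Cacna1a, Cacna1b, Cacna1e) carry P/Q-, N- and R-type currents and drive transmitter release, and the Cav3 pores (Cacna1g, Cacna1h, Cacna1i) carry T-type currents that open near rest and help neurons to fire in bursts. Beta subunits (Cacnb) and alpha2delta subunits (Cacna2d) bring the pores to the membrane and tune them. Sodium channel pores (Scn1a, Scn2a, Scn3a and Scn8a in the brain) start and carry the action potential with their own beta subunits (Scn2b, Scn3b, Scn4b), and Nalcn carries a resting sodium leak.

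Most of these genes are long, and 5 sodium channel pore genes lay on chromosome 2 within 1.328 Mb (mm10, 65457118 to 66784914), in the order Scn3a, Scn2a, Scn1a, Scn9a and Scn7a. Spans ran from 12.3 kb for Scn2b to 816.9 kb for Cacna2d3. Across the 26 genes tested in bulk, the level and the span of a gene had a Spearman's rho of 0.80, which is a description across genes of the same libraries and not across replicates. Whether the bulk counts include intronic reads is not given in the sources used here.

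The promoters of the channel genes were looked up for the letters they carry. RefSeq windows (GRCm38.p6) were found for 23 of the 29 genes, and the 250 bases before the start are shown for Cacna2d3, the gene called in bulk nuclei, and for Scn1a, the gene called in a class of nuclei, both on the minus strand and written 5′ to 3′. Capitals mark GC boxes, that is GGGCGG or its reverse complement CCGCCC. The Cacna2d3 window is chr14:29721865-29722114, directly before the first base of the gene in the files, and the Scn1a window is chr2:66440838-66441087.
Cacna2d3: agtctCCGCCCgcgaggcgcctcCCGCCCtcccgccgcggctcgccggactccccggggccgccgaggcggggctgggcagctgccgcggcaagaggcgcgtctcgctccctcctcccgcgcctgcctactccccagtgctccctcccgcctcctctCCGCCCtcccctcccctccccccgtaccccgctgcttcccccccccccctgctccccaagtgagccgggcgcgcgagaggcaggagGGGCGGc
Scn1a: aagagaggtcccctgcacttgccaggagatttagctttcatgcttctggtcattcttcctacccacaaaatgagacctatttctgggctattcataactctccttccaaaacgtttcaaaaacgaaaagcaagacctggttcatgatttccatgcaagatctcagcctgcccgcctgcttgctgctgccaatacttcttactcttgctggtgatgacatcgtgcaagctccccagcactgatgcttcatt
The Cacna2d3 window was 80.0% G or C with 4 GC boxes, and the Scn1a window was 46.8% G or C with none. GC boxes lay in 8 of the 23 windows (34.8%), against 32.7% of all 32851 windows. The YY1 core CCATNTT lay in the Scn2b window alone (4.35%), against 12.4% of all windows, and TATAAA only in that of Cacna1d (4.35% against 12.4%). The E-box CAGGTG lay in 3 windows (13.0% against 17.2%), and the cAMP response element TGACGTCA in none, against 1.55%. Both strands were searched, and no motif searched is part of another. These shares describe the letters in these windows. For each channel gene only 1 window was used, the one nearest to the start of the gene in the bulk data. The set of all windows can hold more than 1 for a gene, so the shares are not fully alike. The Cacna1e window lay 158581 bases from that start and the Scn4a window 3898 bases.

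Bulk levels are given in CPM, the reads of a gene per 1000000 reads on the genes tested, after TMM scaling. In bulk nuclei, 1 of the 26 channel genes passed the test. Cacna2d3, an alpha2delta subunit, was higher after CUS. The call rests on the quasi-likelihood test of edgeR at a false discovery rate (FDR) of 0.05 over 18394 genes, which called 3.29% of all genes tested and 1.16% as higher in CUS, so 1 of 26 is near this background. Under the likelihood ratio test that the study used, 3 channel genes were called, all higher (Cacna2d3, Cacna1c and Cacna1g), against 7.23% of all genes, and 2.9% as higher. DESeq2 called these 3 and Cacna1e, all higher, against 7.62% of all genes, and 2.97% as higher. The log2 fold change was above 0 for 17 of the 26 genes and below 0 for 9, with a median of 0.07 against 0.006 over all genes tested, of which 51.3% were above 0. At an unadjusted p under 0.05 there were 7 higher and 2 lower, and 21.5% of all genes reached that level. The levels of CUS mice lay entirely above those of control mice for 2 channel genes, Cacna2d3 and Cacna1c, and entirely below them for none, where 4.06% and 4.7% of all genes did so. In these bulk samples, fewer nuclei of a type and less RNA per nucleus cannot be told apart.

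**Figure D1:**
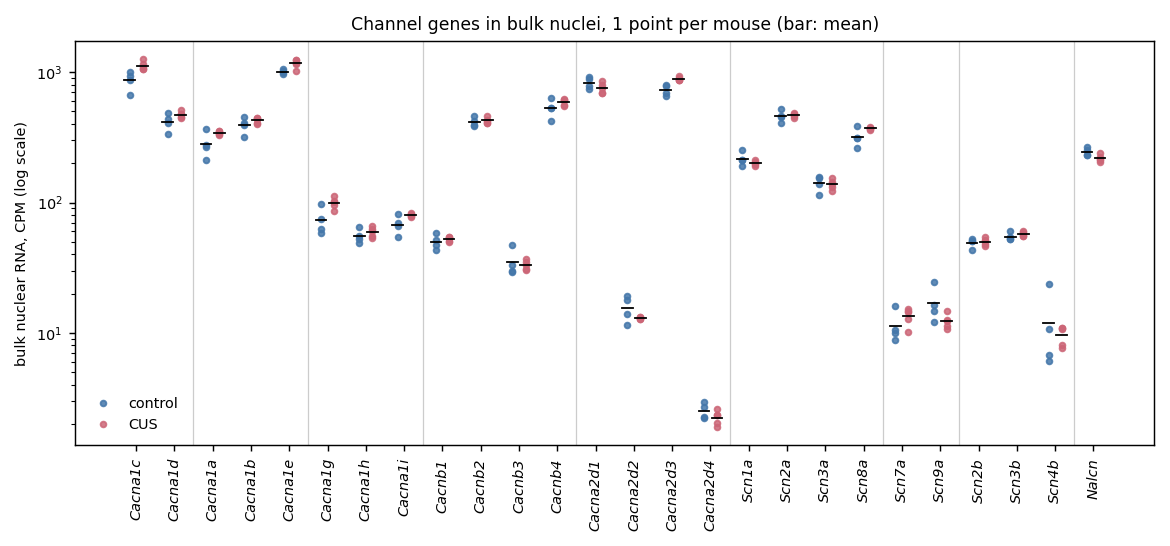
Level of 26 channel genes in bulk nuclear RNA (CPM, log scale), 1 point for each of 4 control and 5 CUS mice, with a bar at the mean of each group and lines between subunit families. Mean levels ran from 2.37 CPM for Cacna2d4 to 1097 CPM for Cacna1e, and the points of the groups separate only for Cacna1c and Cacna2d3.

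All 8 calcium channel pore genes were above 0 in bulk, with log2 fold changes from 0.11 (Cacna1h) to 0.44 (Cacna1g), and none passed the quasi-likelihood test. No alternative that was run turned the sign of any of these 8. Cacna1c, which encodes the main L-type pore of the brain (chromosome 6, 118587240 to 119196418, minus strand), measured 871, 1008, 931 and 669 CPM in the control mice and 1067, 1260, 1154, 1055 and 1092 CPM in the CUS mice, each in the order of their replicate numbers. Every CUS mouse was above every control mouse. The means were 869.7 ± 145 (SD, n = 4) and 1126 ± 84.6 (n = 5), a log2 fold change of 0.37 (SE 0.10) with an adjusted p of 0.0642 by the quasi-likelihood test of edgeR and 0.0166 by its likelihood ratio test. The quasi-likelihood test called it without TMM scaling (adjusted p 0.0358), without the filter on low counts (0.0375), with a replicate block (0.041) and without control replicate 3 (0.0443), and did not call it without any 1 of the other 8 mice (0.0621 to 0.129).

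Cacna1g, a T-type pore (chromosome 11, 94408391 to 94474198, minus strand), measured 62.2, 74.4, 98.3 and 58.8 CPM in control mice and 102, 86.8, 95.6, 102 and 112 in CUS mice. Control replicate 3 reached into the CUS range and the other three control mice lay below it. The log2 fold change was 0.44 (SE 0.13) on means of 73.4 ± 17.9 and 99.6 ± 9.14, with an adjusted p of 0.0751 by edgeR's quasi-likelihood test and 0.0234 by its likelihood ratio test. Without control replicate 3 the quasi-likelihood test gave 0.60 with an adjusted p of 0.00272, and without the filter on low counts it gave an adjusted p of 0.0422.

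The pore with the highest level per kb of gene among the Cav2 genes was Cacna1b, the N-type pore of presynaptic terminals, at 2.59 CPM per kb. It measured 396, 406, 453 and 316 CPM in control mice and 449, 442, 437, 403 and 408 in CUS mice, and the groups overlapped (log2 fold change 0.12, edgeR adjusted p 0.445). Cacna1e, the R-type pore, had a log2 fold change of 0.21 (SE 0.07, edgeR adjusted p 0.0951, and 0.0339 in DESeq2). Cacna1a, the P/Q-type pore, had 0.29 (SE 0.12, edgeR adjusted p 0.169), and Cacna1i and Cacna1d had 0.25 and 0.18. Control mice differed among themselves in these genes: control replicate 4 had the lowest control level for 6 of the 8 pores and control replicate 3 the highest for 7 of the 8. Without control replicate 3 the log2 fold change of Cacna1a was 0.44 (edgeR adjusted p 0.00559), and the quasi-likelihood test called 7 channel genes, when 8.1% of all genes were called: Cacna1a, Cacna1c, Cacna1g, Cacna1i, Cacna2d3 and Scn8a were higher and Scn9a was lower. The SD was smaller among CUS mice for 7 of the 8 pores, as with 10.2 CPM for Cacna1a against 64.0 among controls, and larger for Cacna1e (87.1 against 41.2). Control mice also differed among themselves over all genes. The chi-square per degree of freedom between the reads of a pair of mice was 7.62 to 24.4 among controls. Among CUS mice it was 2.88 to 9.88.

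The alpha2delta genes lay on both sides of 0 in bulk, with 1 above and 3 below. Cacna2d3 (chromosome 14, 28904943 to 29721864, minus strand) measured 693, 654, 802 and 783 CPM in control mice and 934, 866, 902, 866 and 864 in CUS mice. The lowest CUS mouse was above the highest control mouse. The means were 733 ± 70.9 (SD, n = 4) and 886 ± 30.8 (n = 5), with a log2 fold change of 0.27 (SE 0.07) and an adjusted p of 0.0475 by edgeR's quasi-likelihood test, 0.0116 by its likelihood ratio test and 0.00338 by DESeq2. The quasi-likelihood call was lost without control replicate 1 (adjusted p 0.0842) or 2 (0.146), without any 1 of the CUS replicates (0.0586 to 0.106) without TMM scaling (0.0539) and with a replicate block (0.0847), while the log2 fold change stayed between 0.22 and 0.32 when a mouse was left out.

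Cacna2d1, which binds gabapentin and has the highest level per kb of the alpha2delta genes (1.80 CPM per kb), measured 919, 886, 779 and 739.6 CPM in control mice and 762, 860.1, 796, 696 and 688 in CUS mice. The groups overlapped, and the log2 fold change of -0.13 (SE 0.08) did not pass the test (edgeR adjusted p 0.41). Cacna2d2 was at 15.6 ± 3.52 and 13.0 ± 0.201 CPM (log2 fold change -0.26, edgeR adjusted p 0.244, and called lower without control replicate 1 at -0.38 and 0.0427), and Cacna2d4 at 2.52 and 2.24. Cacna2d4 overlaps Lrtm2 on the other strand, whose reads came to 964% of its own, and the strand setting of the counting is not given in the sources used here.

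The summed RNA of 3 of 28 lists of cell type markers did not overlap between the groups in bulk. None of the 28 marker lists passed after adjustment, and lists at the lowest possible p did not pass either. Not passing therefore does not show that the markers were unchanged. The summed level of 8 striatal markers was 650 to 1030 CPM in control mice and 1140 to 1380 in CUS mice, 1.43 times as high, with no overlap (two-sided exact permutation p = 0.00794, the lowest possible for 4 against 5 mice, and 0.0741 after Benjamini-Hochberg adjustment over 28 marker lists). Of the 8 markers, 1 was called higher and none was at 0. In nuclei, Cacna2d3 had its highest level in striatal-like nuclei, at 1290 ± 166 CPM (SD, n = 8 mice). Within striatal-like nuclei the level of Cacna2d3 was 1265 ± 116 in control and 1314 ± 222 in CUS mice (log2 fold change 0.06, edgeR adjusted p 0.975), and over all nuclei it was 405 ± 27.7 and 395 ± 75.4 (-0.04, edgeR adjusted p 0.936). The sum of 5 markers of oligodendrocyte precursors was also higher in every CUS mouse in bulk (1120 to 1360 against 1420 to 1570), with 1 of the 5 called higher and 1 lower, and that of 4 markers of the Ndst4 excitatory class was lower (629 to 762 against 540 to 607), with 2 of the 4 called lower, both at an exact permutation p of 0.00794 and 0.0741 after adjustment. The summed neuronal markers Rbfox3, Snap25 and Syt1 were 3530 to 4190 and 3650 to 3930. Those of 4 excitatory markers were 965 to 1260 in control and 1230 to 1310 in CUS mice, 1.2 times as high with an overlap (exact permutation p = 0.0159, 0.111 after adjustment), and none of the 4 was called. Those of 4 inhibitory markers were 122 to 198 and 111 to 171 (0.789 times, exact permutation p = 0.151). Those of 8 astrocyte markers were 2460 to 2840 and 2210 to 2540 (0.888 times, exact permutation p = 0.0794), and 4 of the 8 were called lower. Those of 7 markers of mature oligodendrocytes were 295 to 696 and 309 to 392 (0.668 times, 1 called lower), and those of 4 markers of the Enpp6 oligodendrocyte class were 132 to 161 and 117 to 137 (0.856 times, 2 called lower). The part of these shifts in the bulk levels of Cacna2d3, of the calcium channel pores and of the other channel genes was not tested.

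The calcium channel beta subunits stayed near 0 in bulk, from -0.06 (Cacnb3) to 0.16 (Cacnb4) on the log2 scale, and none passed the test. Cacnb3, with the highest level per kb (2.49), measured 29.7, 33.4, 47.0 and 29.2 CPM in control mice and 31.1, 30.2, 35.2, 33.3 and 37.0 in CUS mice. Control replicate 3 was above all other mice, and without it the log2 fold change of Cacnb3 turned to 0.11. Cacnb2 was at 415 ± 35.0 and 427 ± 22.4, and Cacnb1 at 50.2 ± 6.66 and 52.5 ± 2.04.

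No sodium channel gene passed the test in bulk. Scn2a, the pore of the axon initial segment of excitatory neurons and the sodium channel pore with the highest level per kb (3.17), measured 520, 457, 409.9 and 453 CPM in control mice and 448, 485, 468, 477 and 460.0 in CUS mice. The CUS mice lay inside the range of the controls, with a log2 fold change of 0.02 (SE 0.07). Scn8a, the pore of mature initial segments and nodes, was at 319 ± 52.5 and 370.3 ± 7.95 (log2 fold change 0.22, edgeR adjusted p 0.182). Scn3a, known from the developing brain, was at 142 ± 19.8 and 138 ± 11.4, and Scn1a, known for its part in the firing of fast-spiking interneurons, at 217 ± 26.5 and 201 ± 7.40 (log2 fold change -0.11, edgeR adjusted p 0.418).

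Of the pores known from other tissues, Scn7a had the highest level per kb (0.112) and measured 16.0, 10.5, 10.0 and 8.81 CPM in control mice and 14.4, 14.7, 15.2, 12.8 and 10.2 in CUS mice, with groups that overlapped. Scn9a had the lowest log2 fold change of the channel genes in bulk, -0.46 (SE 0.17, edgeR adjusted p 0.135), and its control mice spread from 12.2 to 24.7. A gene on its other strand, Gm13629, had 94.7% as many reads as Scn9a. Among the beta subunits Scn2b measured 50.4, 42.9, 52.2 and 50.7 CPM in control mice and 47.7, 46.5, 51.3, 54.4 and 50.8 in CUS mice, within each other's range. Scn3b was at 54.9 ± 3.77 and 57.7 ± 2.55. Scn4b was at 23.7 in control replicate 4 and between 6.07 and 10.9 in the other 8 mice, and without that mouse its log2 fold change went from -0.30 to 0.30. Nalcn measured 265, 254, 232 and 232 CPM in control mice and 206, 240.0, 223, 214 and 216 in CUS mice. Only CUS replicate 2 reached the control range, and the log2 fold change of -0.16 (SE 0.06) did not pass the test (edgeR adjusted p 0.16).

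Genes that work with the channels were read from a list of 38 names, of which 35 were tested in bulk: gamma subunits, the Nalcn complex, sodium channel scaffolds and fibroblast growth factor homologous factors, calcium sensors and active zone proteins, calcium extrusion pumps and exchangers, and 4 further pore and beta subunit genes. None passed the quasi-likelihood test of edgeR, while 7 were higher and 2 lower at an unadjusted p under 0.05 (21.5% of all genes), with a median log2 fold change of 0.04. The likelihood ratio test called 3 higher and 2 lower (7.23% of all genes), and DESeq2 called 5 higher and 2 lower (7.62%). Among the partner genes that the likelihood ratio test called, named after their values were seen, were the active zone protein Rimbp2, the pump Atp2b2 and the exchanger Slc8a2, all higher, and the exchanger Slc8a3, which was lower.

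In sNucDrop-seq the UMIs of each mouse were summed, over all nuclei and within classes, and tested in the same way at an FDR of 0.2. Levels of nuclei are in CPM of UMIs, the UMIs of a gene per 1000000 UMIs of all genes. Over all nuclei 17 channel genes passed the filter on low counts and none passed the test, by the quasi-likelihood or likelihood ratio tests of edgeR or by DESeq2, which called 0.0199%, 0.339% and 0.438% of all 5018 genes. At an unadjusted p under 0.05 there were 2 lower, Scn1a and Scn4b, and none higher, against 8.01% of all genes. For Scn8a every CUS mouse was above every control mouse, at 236 ± 8.70 CPM in control and 259 ± 13.1 in CUS mice. Its log2 fold change was 0.13 (edgeR adjusted p 0.627), and the share of all genes that separated so is not given here. Striatal-like nuclei, in which Scn4b had its highest level, were 7.33% to 9.92% of the nuclei of control mice and 4.97%, 8.7%, 4.21% and 2.49% of those of CUS mice, and the part of this in the level of Scn4b was not tested. The median log2 fold change was -0.06, and 5 genes were above 0 and 12 below. Of these 17 genes, 5 were above 0 in both bulk and nuclei, 5 were below 0 in both, 7 were above 0 in bulk and below 0 in nuclei, and none the other way. Cacna1c was among the 7: over all nuclei it was at 294 ± 28.9 CPM in control mice and 250.5 ± 56.5 in CUS mice (log2 fold change -0.23, SE 0.16, edgeR adjusted p 0.629). Of the other pores of calcium channels, Cacna1d (-0.06) and Cacna1e (-0.03) were also below 0 over all nuclei. Cacna1a (0.02) and Cacna1b (0.05) were above 0 there, and the T-type pores did not pass the filter. The bulk and single-nucleus mice were different animals of different ages. By the study's methods the tissue also differed, medial prefrontal cortex in bulk and neocortex in nuclei. By those methods the time of collection differed as well, while the labels give the same time for all mice. The way libraries were made also differed.

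Leaving out 1 library, CUS replicate 2, changed how many channel genes were called over all nuclei and over excitatory nuclei. Without CUS replicate 2, 6 channel genes passed the FDR over all nuclei, when 16.2% of all genes did. Scn1a (log2 fold change -0.36), Scn3a (-0.36), Cacna1c (-0.42), Cacnb2 (-0.52) and Scn4b (-0.65) were then lower and Scn2b (0.29) was higher. In that mouse Cacna1c was at 331 CPM and Cacnb2 at 334, against 202 to 244 and 177 to 249.8 in the other three CUS mice. Its share of striatal-like nuclei, 8.7%, was the highest of the CUS mice and within the range of the controls, and Cacnb2 and Scn4b had their highest level in that class. It also had the lowest median of UMIs (1804.5) and of genes (1106) per nucleus of the 8 mice. The part of either in these calls was not tested. No channel gene was called over all nuclei when any other mouse was left out.

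Over the 17251 excitatory nuclei none of 16 channel genes passed the test by any of these 3 tools, where 0.0376% of all genes passed the quasi-likelihood test, 0.715% the likelihood ratio test and 0.752% DESeq2. Among them 2 were lower at an unadjusted p under 0.05, Scn1a and Scn3a, where 9.25% of all genes reached that level. Scn1a was at 613, 553, 538 and 604 CPM in control mice and 418, 532, 459 and 419.8 in CUS mice, with no overlap (log2 fold change -0.35, SE 0.12, edgeR adjusted p 0.502). CUS mice lay entirely below control mice for 2.99% of all genes in these nuclei, and among the 16 channel genes tested there for Scn1a and Cacna2d1, the latter at 927 ± 67.6 and 815 ± 39.4 (log2 fold change -0.20, edgeR adjusted p 0.534). Without CUS replicate 2 there were 5 calls in excitatory nuclei, Scn1a, Scn3a, Cacna1c and Cacnb2 lower and Scn2b higher, when 13.5% of all genes were called. Over the 2862 inhibitory nuclei none of 18 channel genes passed the test by any of the 3 tools, which called 0% of all genes with the quasi-likelihood test and DESeq2 and 0.0631% with the likelihood ratio test. None had an unadjusted p under 0.05 (4.64% of all genes), and Scn1a was at 867 ± 68.3 and 799 ± 39.2 (log2 fold change -0.12, edgeR adjusted p 0.945).

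**Figure D2:**
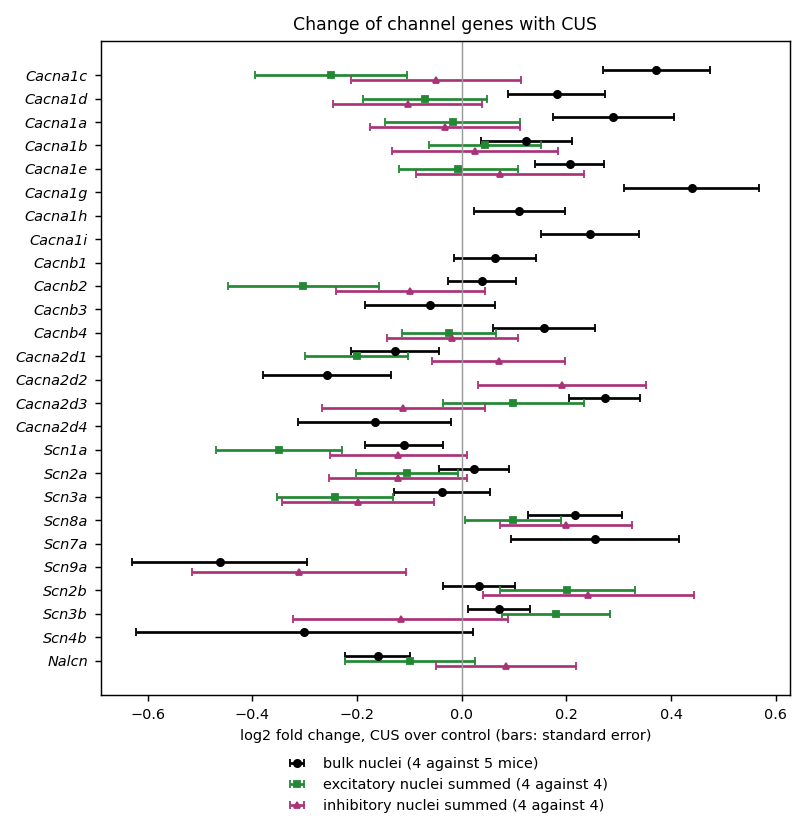
Log2 fold change of CUS over control for 26 channel genes, with bars for the standard error, in bulk nuclei (black, 4 against 5 mice) and in UMIs summed over excitatory (green) and inhibitory (purple) nuclei (4 against 4 mice). Calcium channel pores lie to the right of 0 in bulk. In excitatory nuclei Cacna1c (-0.25), Cacna1d (-0.07), Cacna1a (-0.02) and Cacna1e (-0.006) lie below 0 and Cacna1b (0.04) above it. Cacna1g, Cacna1h and Cacna1i have no point from nuclei. Scn1a lies at -0.35 in excitatory nuclei and at -0.12 in inhibitory nuclei.

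Whether the change differed between excitatory and inhibitory nuclei was tested on the difference of the log2 levels of the same mouse. None of the 16 channel genes tested passed the FDR of 0.2 in limma, and none of all 4396 genes did (0%). At an unadjusted p under 0.05 there were 4, against 6.05% of all genes. The change was lower in excitatory than in inhibitory nuclei by 0.30 for Cacna2d1 (limma adjusted p 0.603), by 0.24 for Scn1a (adjusted p 0.671), by 0.25 for Cacnb2 and by 0.20 for Nalcn. A difference between excitatory and inhibitory nuclei was therefore not shown for any of them.

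Within the 25 classes 414 pairs of a channel gene and a class were tested, and 1 passed the FDR of 0.2, against 0.115% of all 118555 pairs of a gene and a class. At an unadjusted p under 0.05 there were 26 pairs (6.28%), near the 6.04% of all pairs that reached that level. The call was Scn1a in the L2/3 Enpp2-like excitatory nuclei (3682 nuclei), the upper-layer class marked by Cux2, Rasgrf2 and Enpp2, in which 0.985% of 5379 genes were called and 0.539% as lower in CUS. Scn1a was at 743, 699, 653 and 648 CPM in control mice and 381, 567, 425 and 411 in CUS mice. All 4 CUS mice were below all 4 control mice, as for 2.94% of the genes tested in this class, and CUS replicate 2 lay nearest to the controls. The means were 686 ± 44.7 and 446 ± 82.8 (SD, n = 4 each), a log2 fold change of -0.63 (SE 0.14) with an adjusted p of 0.0712 by edgeR's quasi-likelihood test, 0.00718 by its likelihood ratio test and 0.0117 by DESeq2, which called 3.05% and 0.892% of the genes of this class.

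The call of Scn1a depended on 4 of the 8 mice. Leaving out 1 mouse gave log2 fold changes of -0.81 to -0.55 and adjusted p values of 0.00121 to 0.315, and the call was lost without CUS replicate 1 (0.236), 3 (0.213) or 4 (0.315) or control replicate 2 (0.2). Other clusterings and nucleus filters gave -0.64 to -0.60. The 5 markers of the class were at 1180 to 1350 CPM in its control nuclei and 1010 to 1250 in its CUS nuclei. The summed UMIs of 4 choroid plexus markers, which upper-layer neurons should lack, were at 3.45 to 6.72 CPM in control and 14.9 to 24.5 CPM in CUS nuclei of this class (two-sided exact permutation p = 0.0286, the lowest possible for 4 against 4 mice, and 0.654 after adjustment over 28 marker lists). With 4 against 4 mice, 1 list at this p cannot pass that adjustment on its own. Over all nuclei the choroid plexus markers were at 5.11 to 12.3 CPM in control and 16.9 to 230 in CUS mice, also with no overlap. The part of either in the level of Scn1a was not tested.

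Scn1a was below 0 in 22 of the 25 classes and in 12 of the 13 excitatory classes, where its log2 fold change ran from -0.63 to 0.003. These classes come from the same 8 mice and are not independent of each other. In the Ndst4-like excitatory nuclei Scn1a was at 475 ± 48.1 and 340.3 ± 48.8 (log2 fold change -0.50, edgeR adjusted p 0.521, and called by DESeq2 with an adjusted p of 0.0886), and in the L4-like nuclei at 685 ± 91.4 and 576 ± 78.8 (-0.27, edgeR adjusted p 0.537). In the Pv-like interneurons, fast-spiking cells in which Scn1a had its highest level, it was at 1095 ± 65.8 and 1054 ± 69.0 (-0.05, edgeR adjusted p 0.982).

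**Figure D3:**
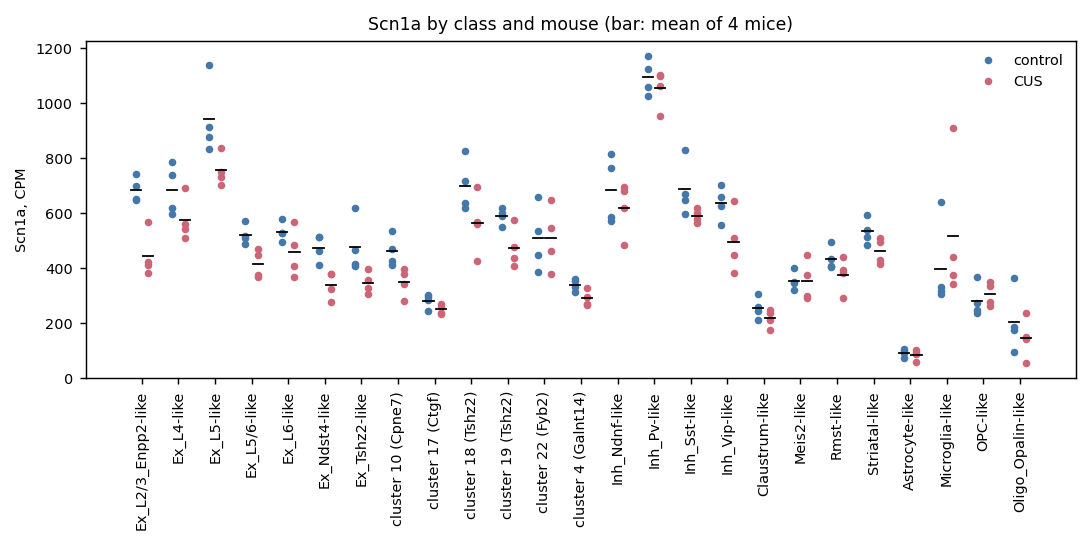
Level of Scn1a (CPM, axis from 0) in each class of nuclei, 1 point for each of 4 control and 4 CUS mice, with a bar at the mean of each group. In L2/3 Enpp2-like nuclei the CUS points lie between 381 and 567 and the control points between 648 and 743, and in Pv-like nuclei the groups overlap near 1000.

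Of the other pore genes of the chromosome 2 cluster, Scn2a and Scn3a were tested in L2/3 Enpp2-like nuclei and neither passed the FDR. Scn2a was at 758 ± 48.3 CPM in control mice and 684 ± 59.1 in CUS mice, and the groups overlapped (log2 fold change -0.16, edgeR adjusted p 0.617). Scn3a was at 259 ± 19.2 CPM in control mice and 210 ± 23.5 in CUS mice, with no overlap (log2 fold change -0.31, SE 0.13, edgeR adjusted p 0.35). Besides Scn1a and Scn3a, the CUS mice lay entirely below the control mice for Cacna2d1 (log2 fold change -0.24, edgeR adjusted p 0.479) and Cacnb4 (-0.19, edgeR adjusted p 0.518), so for 4 of the 17 channel genes tested in this class, against 2.94% of all genes tested there. Without CUS replicate 2, when 13.3% of all genes were called in this class, the channel genes called there were Scn1a (-0.81), Scn3a (-0.42), Cacna1c (-0.35), Cacnb2 (-0.35) and Cacna2d1 (-0.28), all lower. Scn9a was at 53.6 ± 7.44 and 33.8 ± 13.5 in the Ndst4-like nuclei (-0.62, edgeR adjusted p 0.607). No partner gene passed the FDR over all, excitatory or inhibitory nuclei or in any class.

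The levels of the channel genes ranged widely over the classes of nuclei. Levels are given in CPM of the UMIs of the class, as the mean and SD of the 8 mice, and since the classes were made from the same nuclei they are a description with no test. Genes of this list and of the partner list were left out of the genes used to cluster. Of the 26 genes, 12 had their highest level in an excitatory class. Under 5 other clusterings and nucleus filters the highest class was the same for 15 genes and another under at least 1 of them for 11: Cacna1a, Cacna1b, Cacna1c, Cacna1e, Cacna1g, Cacnb1, Cacnb4, Cacna2d1, Scn3a, Scn3b and Nalcn.

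**Figure D4:**
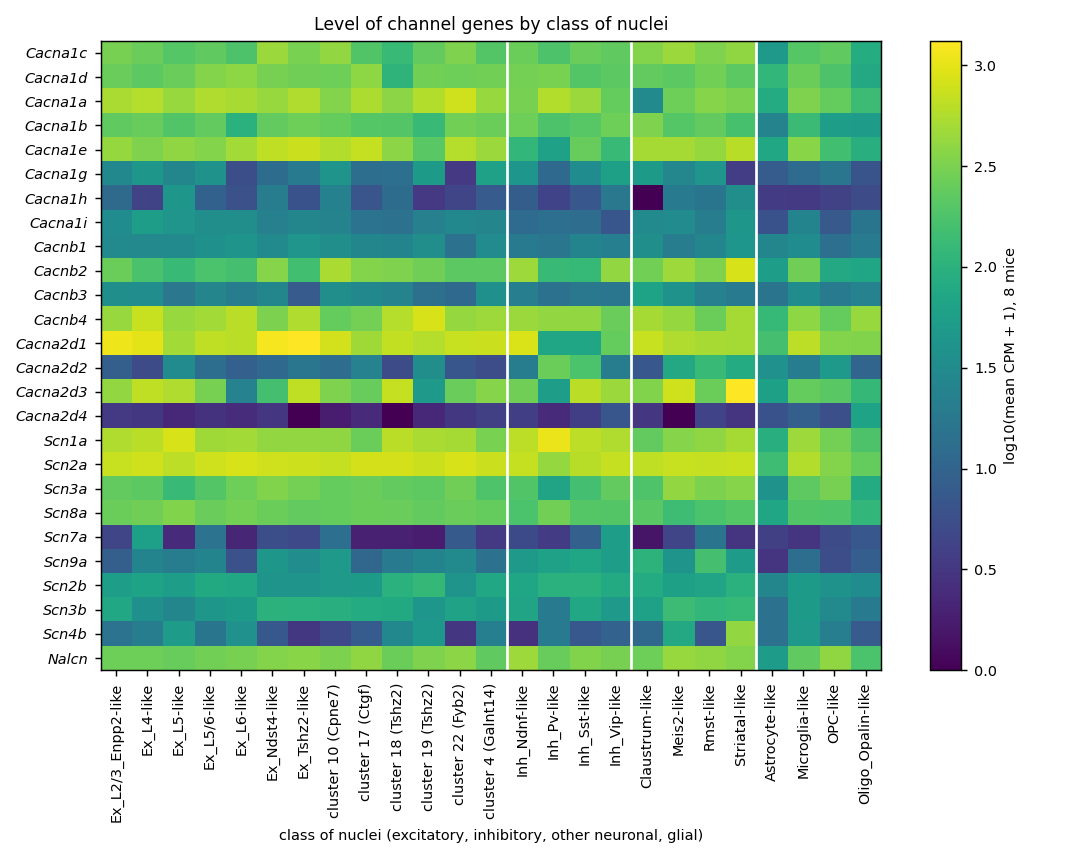
Mean level of 26 channel genes (rows) in 25 classes of nuclei (columns, ordered as excitatory, inhibitory, other neuronal and glial), as log10 of CPM plus 1 over 8 mice. Rows such as Scn2a are nearly even over neurons, and rows such as Cacna2d2, Cacna2d3, Scn4b and Scn7a hold a few bright cells.

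The alpha2delta genes differed in the classes where they were highest. Cacna2d1 was highest in excitatory nuclei, at 1325 ± 184 CPM in Tshz2-like and 1205 ± 120 in Ndst4-like nuclei, whose mouse ranges overlap (and in Ndnf-like interneurons when channel genes were kept among the clustering genes), and lowest in the Pv-like (68.1 ± 10.7) and Sst-like (67.6 ± 20.6) interneurons. Over inhibitory nuclei summed Cacna2d1 was at 237 ± 31.2 in control and 251 ± 11.0 in CUS mice (n = 4 each). The remaining interneurons, Ndnf-like and Vip-like, thus held more of it than Pv-like and Sst-like ones. Cacna2d2 was the reverse in Pv-like and Sst-like interneurons, at 262 ± 74.4 and 173 ± 47.9, which overlap, and was at 10.3 in excitatory nuclei summed. Cacna2d3 was at 1290 ± 166 in striatal-like nuclei and 786 ± 217 in Meis2-like nuclei, whose ranges overlap, and at 22.9 ± 6.74 in L6-like excitatory nuclei, a ratio of 56.3 between the highest and the lowest neuronal class. Cacna2d4 was seen in 45 UMIs of oligodendrocyte-like nuclei, at 63.4 ± 69.0, with a spread over mice as large as its mean.

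**Figure D5:**
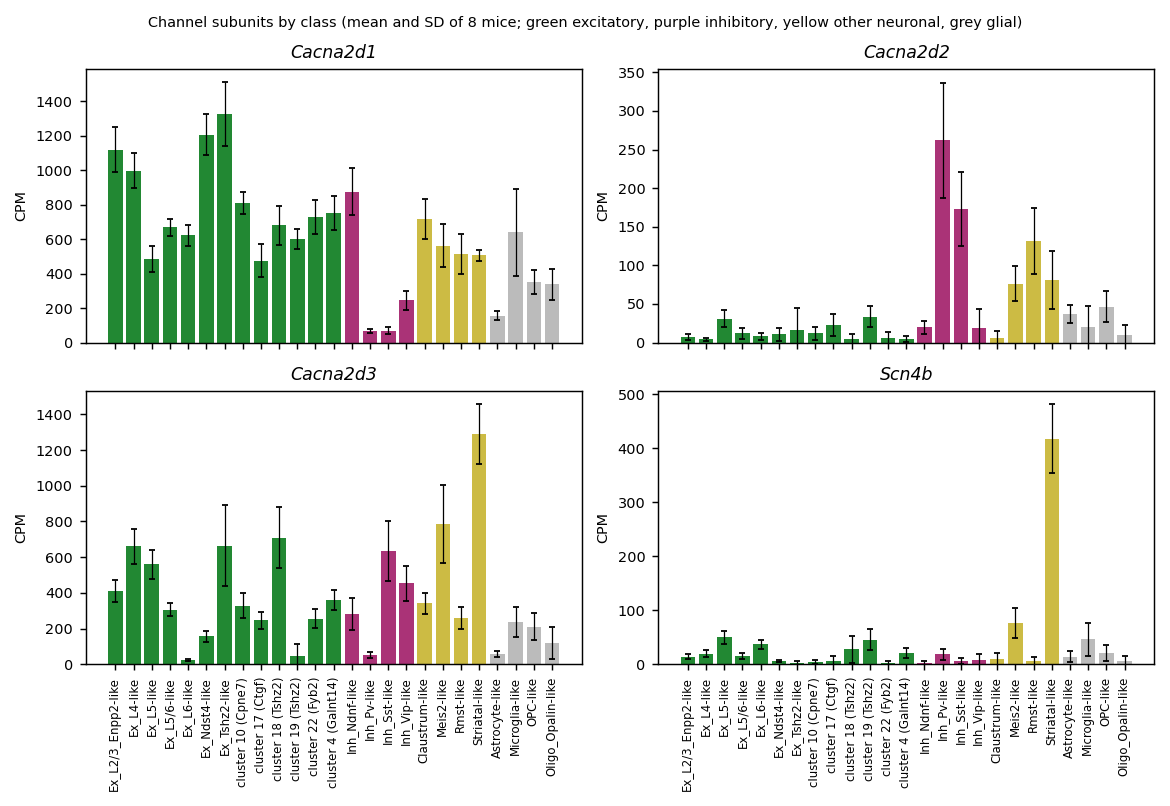
Level of Cacna2d1, Cacna2d2, Cacna2d3 and Scn4b (CPM, axes from 0) by class of nuclei, as bars for the mean and error bars for the SD of 8 mice, colored by excitatory, inhibitory, other neuronal and glial classes. Cacna2d1 is high in most excitatory classes, Cacna2d2 in 2 interneuron classes, and Cacna2d3 and Scn4b have their highest bars, 1290 and 418, in striatal-like nuclei.

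The calcium channel pores differed in how widely they were found. Cacna1b was at 331 ± 66.6 in its highest class, claustrum-like nuclei, whose range over mice overlapped that of 19 other classes, and at 98.7 ± 17.3 in L6-like excitatory nuclei, its lowest neuronal class. Cacna1a was at 795 ± 100 in an unnamed excitatory cluster led by Fyb2 and at 590.2 ± 85.1 in L4-like nuclei, which overlap, but at 30.4 ± 21.4 in claustrum-like nuclei, where the median over neuronal classes was 434. Cacna1e was at 753 ± 144 in Tshz2-like excitatory nuclei and at 60.1 ± 23.4 in Pv-like interneurons. Of the T-type pores, Cacna1h was highest in L5-like nuclei (43.9 ± 14.6), Cacna1i in L4-like nuclei (54.7 ± 8.36) and Cacna1g in a cluster led by Galnt14 (60.8 ± 8.56), each within the mouse range of its next class. Cacna1c was at 447 ± 75.2 in Meis2-like and 446 ± 74.8 in Ndst4-like nuclei, which do not differ beyond their spread, and Cacna1d at 389 ± 64.9 in a cluster led by Ctgf.

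Of the calcium channel beta genes, Cacnb2 was highest in striatal-like nuclei (860 ± 250.4), Cacnb4 in a cluster led by Tshz2 (861 ± 73.8) and Cacnb3 in claustrum-like nuclei (64.2 ± 18.3). Cacnb1 was low and even, from 13.8 ± 12.1 to 42.5 ± 12.5 over neuronal classes.

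Among the sodium channel pores, Scn2a was the most even, from 424 ± 45.1 in Pv-like interneurons to 859 ± 79.1 in L6-like excitatory nuclei. Scn1a was at 1074 ± 66.1 in Pv-like interneurons and 848 ± 138 in L5-like excitatory nuclei, whose ranges overlap, and lowest in claustrum-like nuclei (237 ± 38.8). Scn3a was at 407 ± 95.8 in Meis2-like nuclei and at 66.4 ± 18.7 in Pv-like interneurons, where Scn1a was highest. Scn8a was at 337 ± 39.5 in L5-like nuclei. Scn7a was found mostly in L4-like (57.3 ± 13.6) and Vip-like (55.4 ± 35.8) nuclei against a median of 3.51 over neuronal classes. Scn9a was highest in the Rmst-like GABAergic nuclei (159 ± 46.8) and in claustrum-like nuclei (102 ± 39.5), which overlap.

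Scn4b, a beta subunit, was at 418 ± 64.0 in striatal-like nuclei and 76.4 ± 27.3 in the next class, Meis2-like nuclei, and the ranges of the mice did not overlap. Scn3b was highest in Meis2-like (137 ± 47.9) and striatal-like (124 ± 21.2) nuclei, and lowest in Pv-like interneurons (18.6 ± 6.99). Nalcn was found in all neuronal classes, from 231 ± 29.2 in the cluster led by Galnt14 to 457 ± 72.7 in Ndnf-like interneurons. Scn4a, Scn10a and Scn11a had at most 8 UMIs in their highest class.

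Glial nuclei held some UMIs of most channel genes, which free RNA of broken cells can also give. Genes that mark neurons (Rbfox3, Snap25, Syt1, Slc17a7, Gad1 and Gad2) were read beside them, each gene against its own level over all nuclei. In astrocyte-like nuclei these 6 were at 21.2% to 57.0%, and 23 of the 25 channel genes compared were at or below the highest of them, all but Cacnb1 and Cacna2d2. In oligodendrocyte-like nuclei the 6 were at 27.3% to 58.4%, and 22 of the 25 channel genes were at or below the highest. Cacnb1, Cacnb3 and Cacnb4 were above it there, Cacnb4 at 433 CPM, 93.2% of its level over all nuclei. In the nuclei of oligodendrocyte precursors the 6 were at 12.6% to 116%, the highest being Gad1, and 22 of the 25 were at or below that. The other three were Nalcn at 398 CPM (135% of its level over all nuclei), Scn3a at 298 CPM (131%) and Cacna2d2 at 46.6 CPM (133%). In microglia-like nuclei the 6 were at 60.0% to 82.0%, and 14 of the 25 channel genes were at or below the highest. Levels of channel genes at or below the highest neuronal marker were not read as expression in glia, and whether they are background was not tested. Being above it is a description with no test. In the nuclei of oligodendrocyte precursors the marker next to Gad1 was Gad2, at 51.2%. Channel genes lay on both sides of that value, such as Cacna1c at 83.5% and Cacna1b at 26.9%.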

How the data were processed

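The authors mapped bulk reads to mm10 with STAR and counted them per gene with in-house programs, and deposited whole counts without normalization. The kit was stranded, and the strand setting and the treatment of introns in counting are not given in the sources used here. The deposited sNucDrop-seq tables hold UMI counts (exonic and intronic, Gencode annotation) for 5000 barcodes per mouse. The condition and number of each mouse came from the labels. Each mouse is 1 replicate.

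The bulk test was the quasi-likelihood test of edgeR 4.0.16 (in R 4.3.3) after filterByExpr, with TMM factors, at an FDR of 0.05 over 18394 genes. Printed bulk levels are CPM of tested genes with TMM factors, and nuclei levels are CPM of all UMIs. Barcodes were kept when they had from 600 to 5000 genes, less than 5% of UMIs on mitochondrial genes, and a doublet score up to 0.2 at an expected rate of 0.1. The score was rebuilt and removed 4788 barcodes (15.2%), and the study kept more nuclei. Nuclei were clustered with Seurat 5.3.0 (2000 variable genes without channel and partner genes, 50 principal components, 20 neighbours, resolution 1). A cluster was named X-like when at least 3 markers of a type, and at least 50% of its list, were enriched 1.5-fold in 5% of nuclei, with at least 1 among its 10 leading genes (in 25% of nuclei) and no other type having more there. An unnamed cluster counted as excitatory when at least 20% of its nuclei had Slc17a7, 3 times the share with Gad2. These naming thresholds were set after the clusters were seen, without regard to condition, and class names may differ from the study's. UMIs were summed per mouse and class, and genes whose sum exceeded 10% of the nuclei were tested at an FDR of 0.2. By the study's methods the nuclei mice came in 2 batches, each with 2 control and 2 CUS mice, and the study fitted the batch because it moved expression strongly. The labels do not say which mouse was in which batch, so the batch was not fitted here, and its spread counts as spread between mice in every test of nuclei. The excitatory minus inhibitory difference was tested with limma 3.58.1. Sums of markers were compared with two-sided exact permutation. The scripts were tested on simulated data. The values of 1 partner gene are not reported here.

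The channel genes, marker lists and tests were chosen with earlier results of these data known. Every channel gene was accounted for, and values of every mouse were given for those past the FDR in a main fit or in the bulk likelihood ratio test and for the highest per kb of each subunit group. The alternatives were likelihood ratio tests, DESeq2 1.42.0, dropping the TMM factors, dropping the filter on low counts, a replicate block, leaving out each mouse, and other clusterings and nucleus filters.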

Additional observations from a re-analysis of the deposited data

Results flagged for a closer look

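Cacna1a over all nuclei stood out in the CUS mice. CUS replicate 2 was at 543.2 CPM of UMIs and the other three CUS mice lay between 421 and 436, so that the gap to its nearest neighbour took up most of the range of the group (Dixon's test at the 95% level). This was 1 of 86 groups of 4 or 5 mice examined over the channel genes, and chance flags about 1 in 20. The same mouse was at 602 in excitatory nuclei, where the other CUS mice were at 459 to 506. Without it, 6 channel genes passed the FDR over all nuclei, when 16.2% of all genes did. Its 6001463 UMIs and 2908 nuclei were the fewest of the CUS mice and within the range of all mice, and its median of 1804.5 UMIs per nucleus was the lowest of the 8.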

How the results depend on the processing

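The count of channel genes called in bulk, 1 in the test as reported, was 3 with the likelihood ratio test, 4 with DESeq2, 3 without a filter on low counts, and 0 to 7 when 1 mouse was left out (2.59% of all genes without the filter, and 0.714% to 8.1% without 1 mouse). Over all nuclei it was 0 as reported, 2 without the filter (Scn4b and Scn9a, both lower) and 0 to 6 with 1 mouse left out (0.847% of all genes without the filter, and 0% to 16.2% without 1 mouse). In excitatory nuclei it was 0 to 5 with 1 mouse left out (0% to 13.5% of all genes), and in inhibitory nuclei it was 0 under all 18 alternatives run. Within classes, 1 call became 2 with DESeq2 (Scn1a also in Ndst4-like nuclei), 2 without the filter, 2 without the doublet filter and 0 to 9 with 1 mouse left out (0.0886% of all pairs of a gene and a class with DESeq2, 0.0411% without the filter, 0.0561% without the doublet filter, and 0.0403% to 1.21% without 1 mouse). The cause was not tested, except that fewer mice enter when 1 is left out. In bulk, the log2 fold change of 6 genes, none of them called, changed sign when 1 mouse was left out. Cacnb2 ran from -0.0013 (without control replicate 3) to 0.10, Cacnb3 from -0.13 to 0.11 (without control replicate 3), Scn2a from -0.034 (without control replicate 3) to 0.083, Scn3a from -0.13 to 0.019 (without control replicate 4, and 0.010 without control replicate 1), Scn2b from -0.025 (without control replicate 2) to 0.060, and Scn4b from -0.52 to 0.30 (without control replicate 4). Scn2a was at -0.0051 without TMM factors.

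Replicate numbers are shared between groups, and the labels do not say that they pair mice. Same-numbered mice had correlations of their deviations of 0.02 to 0.15 in bulk and -0.45 to 0.40 in nuclei. Whether the numbers follow the batches of the nuclei mice is not known. With the number as a replicate block, which leaves CUS replicate 5 without a partner, bulk calls were 1 channel gene, Cacna1c in place of Cacna2d3 (1.27% of all genes), and the replicate block left the count over all, excitatory and inhibitory nuclei at 0 and within classes at 1 (0.325% of all pairs). The 4 or 5 mice per group and the median of 2010 UMIs per nucleus limit the precision, and which size of change could be detected is not given here. The tests of differences between excitatory and inhibitory nuclei gave 0 calls under all 10 alternatives run.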
